A study of Homo sapiens with 4 samples.

Results

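Of 10486 measured protein-coding genes with a RefSeq GRCh38 locus under 40 kb, 37 had lower values in U266 cells exposed to trabectedin than in control cells. The members were chosen on the values themselves: a difference of group means (trabectedin minus control) of -0.585 or lower on the log2 scale, which is a level at least 1.5-fold lower, with both treated arrays below both control arrays. Each gene was represented by 1 transcript cluster, the array's probe set for a transcribed locus, and of several clusters of a gene the brightest on average was taken. The members were 37 of 22411 genes and of 17151 measured protein-coding genes. The same 2 limits held for 0.353% of short genes, for 13.7% of protein-coding genes with a locus of 40 kb or more (911 of 6665) and for 4.52% of all genes, and since the members were chosen on this contrast nothing is read from their count.

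U266 is an established human multiple myeloma line, a tumor of plasma cells, and trabectedin is a DNA minor groove binder used against soft tissue sarcoma and ovarian cancer. Total RNA was hybridised to Affymetrix Human Transcriptome Arrays after 24 h. Control cells (n = 2 arrays) were untreated by the sample labels and exposed to PBS by the treatment protocol. Trabectedin cells (n = 2 arrays) received 2.5 nM by the sample labels, whereas the treatment protocol gives the same figure in μM. The cells came from 2 experiments, and no source states whether arrays with the same replicate number share one. All 4 arrays are of this 1 cell line, so the values describe U266 only, and spread between arrays may be partly technical.

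Trabectedin forms bulky adducts in the minor groove of DNA that stop elongating RNA polymerase II and engage the nucleotide excision repair machinery. A long transcription unit offers more DNA in which an elongating polymerase can be stopped than a short one. The mRNA level of a gene of any length also rests on initiation, processing and decay. In plasma cells the transcription factors IRF4 and XBP1 maintain the secretory program, and myeloma cells depend on IRF4 for survival.

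The arrays' medians over all features lay between 5.19 and 5.37 (log2). All 12 markers of plasma cells, such as SDC1 and TNFRSF17, had control means above 5.48, the 95th percentile of 359 olfactory receptor genes, which served as a mark of the dim end of the scale, against 1 of 12 markers of T and NK cells, 3 of 9 of monocytes, 1 of 4 of erythroid cells and 4 of 11 of stromal and epithelial cells. The median difference between groups over all genes was 0.10. In the linear model over all genes (limma), 0 of 37 members and 0 of 22411 genes (0%) had an adjusted p under 0.05, while 31 members and 3136 genes (14%) had an unadjusted p under it. The methods' t-test put 12 members and 2392 genes (10.7%) at or under that threshold, and 0 members after Benjamini-Hochberg adjustment. After scaling to the ribosomal protein genes limma called 12 members and 689 genes (3.07%), and with the replicate number as a block, a pairing that is not established, 21 members and 1392 genes (6.21%). The members were chosen by this same contrast, so nothing is read from these counts. With 2 arrays a group an exact permutation test cannot give a two-sided p below 0.333, so each member is given below by its 4 values and by its differences with single arrays left out, with no test.

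To show the DNA just before the starts of these genes, the 150 bases before the RefSeq start of 8 members are printed 5′ to 3′ on the strand of the gene (GRCh38.p14). They are the plasma cell factors IRF4 (chr6:391602-391751, plus strand) and XBP1 (chr22:28800570-28800719, minus strand), the MYC family gene MYCL (chr1:39901918-39902067, minus strand), the chemokine gene CCL3 (chr17:36090144-36090293, minus strand), the linker histone genes H1-4 (chr6:26156179-26156328, plus strand) and H1-2 (chr6:26056471-26056620, minus strand), and the near-identical gene copies FAM72D (chr1:145094146-145094295, plus strand) and FAM72C (chr1:143973565-143973714, minus strand). Capitals mark matches, on either strand, to the motifs spelled out with the promoter results.
IRF4: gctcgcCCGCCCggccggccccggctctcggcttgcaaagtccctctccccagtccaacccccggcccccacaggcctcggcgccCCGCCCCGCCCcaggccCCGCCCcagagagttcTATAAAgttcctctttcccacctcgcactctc
XBP1: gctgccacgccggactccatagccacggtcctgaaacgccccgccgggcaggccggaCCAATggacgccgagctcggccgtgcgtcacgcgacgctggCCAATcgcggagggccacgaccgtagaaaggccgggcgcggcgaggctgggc
MYCL: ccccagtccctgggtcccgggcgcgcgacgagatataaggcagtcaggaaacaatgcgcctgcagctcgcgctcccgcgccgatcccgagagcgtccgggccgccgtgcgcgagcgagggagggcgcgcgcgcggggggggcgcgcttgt
CCL3: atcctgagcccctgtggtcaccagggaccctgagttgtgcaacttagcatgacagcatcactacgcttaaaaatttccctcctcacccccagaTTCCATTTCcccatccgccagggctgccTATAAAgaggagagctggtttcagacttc
H1-4: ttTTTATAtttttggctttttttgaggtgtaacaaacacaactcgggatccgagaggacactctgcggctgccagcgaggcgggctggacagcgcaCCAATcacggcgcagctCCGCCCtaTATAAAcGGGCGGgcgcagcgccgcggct
H1-2: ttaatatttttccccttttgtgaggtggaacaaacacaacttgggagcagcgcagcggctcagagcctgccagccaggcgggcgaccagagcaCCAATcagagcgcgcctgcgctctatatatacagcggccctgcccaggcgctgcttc
FAM72D: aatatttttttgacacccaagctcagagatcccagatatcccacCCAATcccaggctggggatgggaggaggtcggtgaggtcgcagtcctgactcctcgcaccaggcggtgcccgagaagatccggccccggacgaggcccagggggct
FAM72C: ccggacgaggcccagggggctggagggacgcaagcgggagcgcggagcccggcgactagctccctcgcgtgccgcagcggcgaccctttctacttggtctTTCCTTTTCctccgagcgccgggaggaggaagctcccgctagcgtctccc
Among them IRF4, CCL3 and H1-4 hold a TATA box match whose first base lies 32, 29 and 29 bases before the start, respectively. XBP1 holds 2 CCAAT matches and each linker histone gene 1, and none of the motifs searched is in the printed bases of MYCL.

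The 37 members had a median difference of -0.73 (log2), beside 0.13 over all short protein-coding genes and 0.02 over protein-coding genes of 40 kb or more. In 7 members, SCNN1G, PI15, MYCL, TAS2R10, GPR52, TAS2R14 and CCL3, the value was at least 2-fold lower, and in the other 30 it was between 1.5-fold and 2-fold lower. Control means ran from 4.73 for OR2D2 to 16.51 for CCL3, with a median of 8.98, but a value of one probe set is not an amount of RNA that can be set against that of another. By control mean 3 members (OR2D2, OR56A4 and XCL1) lay under the dim mark of 5.48, as did 41.8% of all short genes, and by treated mean 10 did. Genes that are no members are named below as relatives, neighbors or list partners and were picked after their values were seen. Several of them lay under the dim mark, where a difference near 0 does not show that a transcript was present and stayed level. In bulk RNA, fewer cells of a kind and less RNA per cell cannot be told apart.

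**Figure D1:**
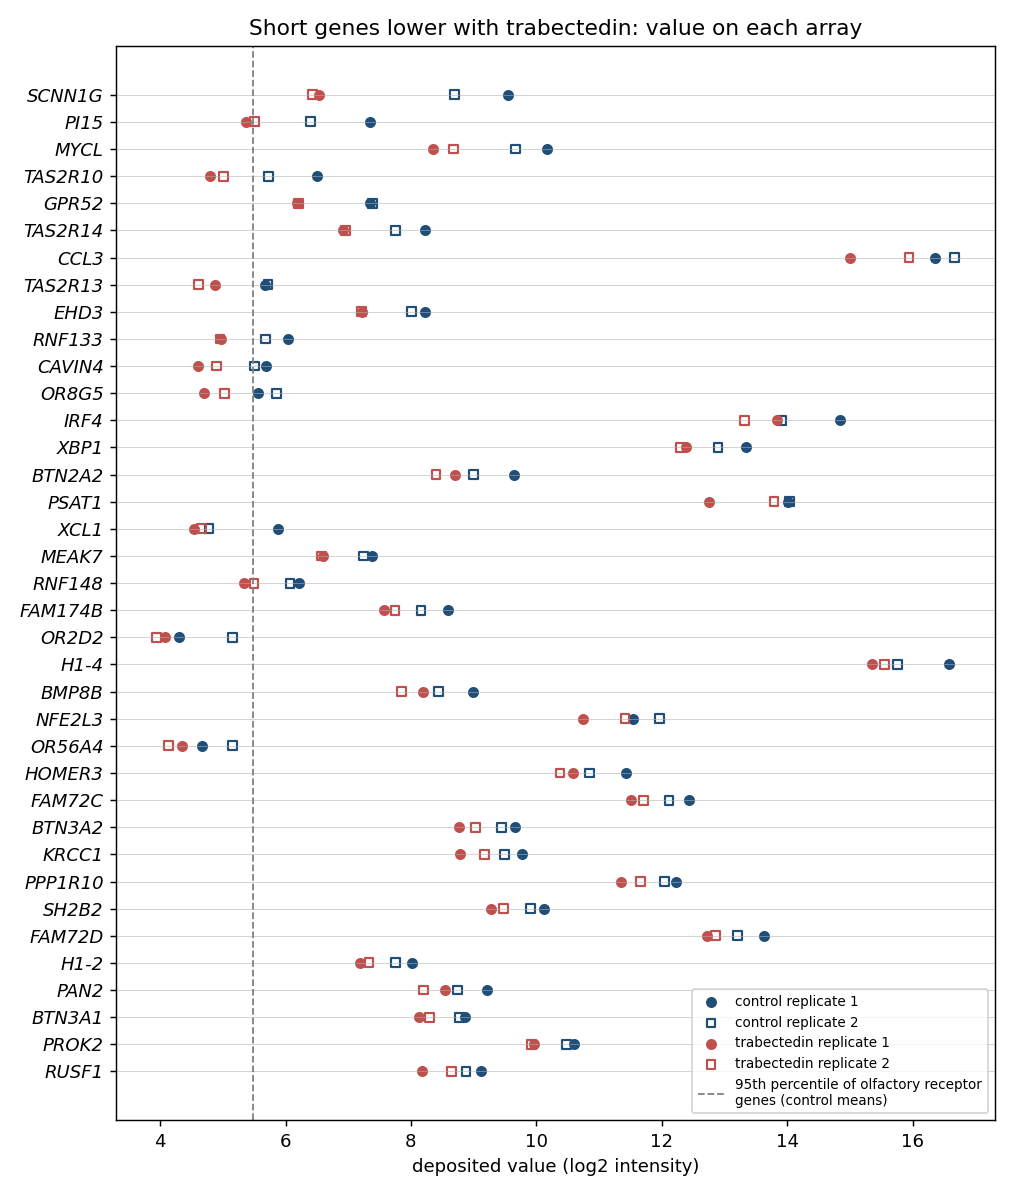
Deposited value (log2 intensity) of each of the 37 members on the 4 arrays, ordered by difference, with blue symbols for control and red for trabectedin arrays (filled circle, replicate 1; open square, replicate 2) and a dashed line at 5.48, the 95th percentile of olfactory receptor genes. Every red symbol lies left of both blue ones because the members were chosen so, and the gap between the groups runs from 0.06 in IRF4 to 2.16 in SCNN1G.

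The space between the groups varied widely among members. The lowest control value exceeded the highest treated value by a median of 0.42, and this gap was larger than the range within either group in 19 of the 37 members, SCNN1G, MYCL, GPR52 and XBP1 among them. The choice of members favors such gaps, and the count was not made over all short genes, so nothing is read from it. The gap was under 0.2 in IRF4, XCL1 and NFE2L3. The median range between the control arrays was 0.36, against 0.15 over all short genes, and between the treated arrays 0.20, against 0.14. Control replicate 1 was the higher control array in 29 members (78.4%, against 38.1% of all short genes), while trabectedin replicate 1 was the higher treated array in 14 (37.8%, against 49.1%).

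The members were spread over the lengths under 40 kb. Their loci ran from 0.731 kb (H1-2) to 38.3 kb (FAM174B) with a median of 12.9 kb, beside 12.5 kb over all short genes. Of these loci 10 were under 2 kb, 5 between 2 and 10 kb, 12 between 10 and 20 kb and 10 between 20 and 40 kb, 8 of the last above 30 kb. Over the 37 members, which share the same 4 arrays, the Spearman correlation of difference with locus length was 0.20. Both quantities are cut off by the limits of the choice, so nothing is read from this value. The share of genes within the 2 limits was 0.428% for loci under 5 kb, 0.24% from 5 to 10 kb, 0.418% from 10 to 20 kb and 0.313% from 20 to 40 kb, against 1.74% from 40 to 80 kb, 13.6% from 80 to 160 kb, 36.6% from 160 to 320 kb and 29.3% for loci of 320 kb or more. By the mirror limits, 301 short genes (2.87%) were higher with trabectedin.

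**Figure D2:**
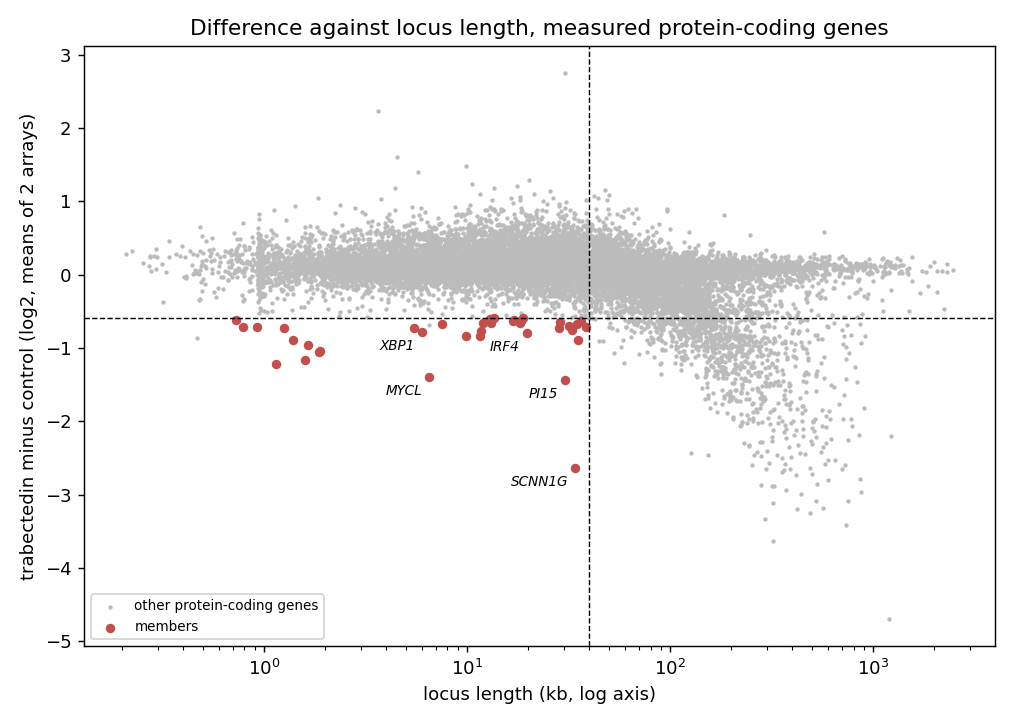
Difference of group means (log2) against locus length (kb, log axis) for 17151 measured protein-coding genes in grey, with the 37 members in red and the limits of the choice as dashed lines. The members are scattered from 0.731 to 38.3 kb under the short genes, whose median is 0.13, whereas to the right of the 40 kb line 911 genes meet the same 2 limits.

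Just inside the difference limit lay RUSF1 (-0.59), PROK2 (-0.60) and BTN3A1 (-0.61), and just outside it XCL2 (-0.58), KCNJ10 (-0.57) and DDX39A (-0.57). Inside the locus limit the longest members were FAM174B (38.3 kb) and SH2B2 (36.6 kb), and the first genes beyond it that met the other limits were HABP4 (41.2 kb, -0.59) and NLRP7 (42.7 kb, -0.61). A further 3 short genes passed the difference limit with overlapping groups and are therefore no members: H2BC14 (-0.86), HSPA5, which encodes the ER chaperone BiP (-0.69), and IL4I1 (-0.59).

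Regulators of plasma cell identity made up 2 of the members. IRF4, on chr6:391752-411443, had 14.85 and 13.90 in the control and 13.84 and 13.32 in the trabectedin arrays, a difference of -0.80. The groups were separated by 0.06 only, control replicate 2 lying next to trabectedin replicate 1, and without control replicate 1 the difference was -0.33. XBP1, the factor of the unfolded protein response whose mRNA is spliced by IRE1, lies on chr22:28794560-28800569 and had 13.35 and 12.89 in control against 12.38 and 12.29 in treated cells. Here the groups were 0.52 apart, the difference was -0.78, and it lay between -0.56 and -1.01 with single arrays left out. Of 22 measured plasma cell transcription factors 9 are short, and these 2 were the only members. The other 7 short ones had a difference above the limit, from -0.53 for POU2AF1, the B cell coactivator OBF1, to 0.40 for BCL6, the repressor of germinal center B cells, while 5 longer factors lay within the limits (CREB3L2, IKZF1, POU2F2, ELL2 and BACH2, from -1.21 to -0.71). PRDM1, which drives plasma cell differentiation, had -0.16.

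XBP1 was also the only member among 29 short genes of the unfolded protein response and ER chaperone list. Of the sensors and proteins upstream of it, ATF6 (-1.58) and ERN1, the gene of IRE1 (-0.90), have loci above 40 kb and lay within the other 2 limits. The short chaperone and folding genes PDIA4 (-0.49), PDIA3 (-0.45) and CALR (-0.41) did not reach the limit, and SSR1 and DERL1, of the translocon and of ER-associated degradation, had 0.00 and 0.01. In the same way PSAT1, the aminotransferase of serine synthesis, was the only member among 30 short genes of the integrated stress response and ATF4 list. It had 14.01 and 14.03 in control and 12.76 and 13.79 in trabectedin cells, a difference of -0.75 that was -0.23 without trabectedin replicate 1. Trabectedin replicate 2 thus lay 0.22 below the control arrays, which were nearly equal. PHGDH, the preceding enzyme of the same pathway, had -0.02, PSPH, the following one, -0.06, and ATF4 itself -0.17.

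A further 2 members are transcription factors of other kinds. MYCL, the L-MYC gene on chr1:39895428-39901917, had 10.16 and 9.66 in control against 8.35 and 8.68 in trabectedin arrays, 2.64-fold lower. Both treated values lay at least 0.98 below both control values, and the difference was between -1.15 and -1.65 with any array left out. The related MYC had 6.33 and 7.15 in control against 6.58 and 7.43 in trabectedin arrays (0.27). Its arrays lay farther apart within each group than the group means did. MYCN (0.01) had a control mean of 5.09, under the dim mark. NFE2L3, a bZIP factor related to NRF2, had 11.54 and 11.97 against 10.74 and 11.41, a difference of -0.68. The second treated array came within 0.13 of the lower control array. Its relative NFE2L2, the gene of NRF2, had 0.32, and NFE2L1 had -0.10.

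The member with the lowest difference was SCNN1G, which encodes the gamma subunit of the epithelial sodium channel, on chr16:23182745-23216883. Its values were 9.54 and 8.70 in control and 6.54 and 6.43 in trabectedin cells, 6.21-fold lower. The treated arrays were nearly equal and 2.16 below the lower control array, and without any one array the difference stayed between -2.21 and -3.06. SCNN1B, the beta subunit gene with a locus of 103 kb, had -0.67, and SCNN1D and SCNN1A, delta and alpha, had 0.12 and 0.16. The control means of SCNN1D and SCNN1A lay under the dim mark. Next to SCNN1G in size of difference was PI15, a secreted peptidase inhibitor, with 7.34 and 6.40 in control and 5.37 and 5.51 in treated cells (-1.43). Its control arrays lay 0.94 apart, and both treated values were near the dim mark.

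GPR52, an orphan receptor coupled to stimulatory G protein that is known from the striatum, had the smallest spread of the members at least 2-fold lower. Its values were 7.34 and 7.38 in control and 6.18 and 6.21 in trabectedin cells, 2.25-fold lower. Both arrays of each group were nearly equal, and the difference of -1.17 stayed between -1.15 and -1.19 with any array left out. The locus, chr1:174447964-174449545, lies inside a longer gene that is described with the positions.

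Bitter taste receptors account for 3 members, all of one cluster on chromosome 12, G protein-coupled receptors of taste cells. TAS2R10 had 6.51 and 5.73 in control and 4.80 and 5.01 in trabectedin cells (-1.21). TAS2R14 had 8.22 and 7.75 against 6.91 and 6.95 (-1.05). TAS2R13 had 5.68 and 5.72 against 4.88 and 4.61 (-0.96). The groups lay 0.72, 0.80 and 0.80 apart, respectively, and the treated values of TAS2R10 and TAS2R13 lay under the dim mark. A separate transcript cluster of TAS2R14 gave 7.05 and 6.28 against 5.39 and 5.27, a difference of -1.34. The 23 measured bitter taste receptor genes ran from -1.21 to 0.56 with a median of -0.08, 14 of them below 0, or 17 with arrays scaled to the ribosomal protein genes. TAS2R20, TAS2R50 and TAS2R7 followed the members with -0.56, -0.49 and -0.39, and TAS2R3 was the highest. These genes are paralogs of similar sequence, and probes can pick up RNA of more than one.

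Olfactory receptors also account for 3 members, 0.836% of the 359 measured. OR8G5 had 5.56 and 5.85 in control and 4.70 and 5.03 in trabectedin cells (-0.84), OR2D2 4.29 and 5.16 against 4.08 and 3.94 (-0.72), and OR56A4 4.66 and 5.15 against 4.35 and 4.13 (-0.67). All treated values lay under the dim mark, and without control replicate 2 the difference of OR2D2 was -0.29. A further cluster assigned to OR8G1 and OR8G5 together gave -0.35. At this end of the scale a value does not show that the RNA was present.

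Besides PI15, another 4 members encode secreted proteins. CCL3, the chemokine MIP-1α that recruits monocytes and activates osteoclasts in myeloma, had 16.36 and 16.67 in control and 15.00 and 15.94 in trabectedin cells, 2.07-fold lower (-1.05). The 2 treated arrays differed from each other by nearly as much as the groups did, and without trabectedin replicate 1 the difference was -0.57. CCL4, the neighboring chemokine gene, had 11.11 and 12.53 in control and 11.35 and 12.44 in trabectedin cells (0.08). Its arrays thus lay far apart within each group. The 20 measured CCL genes other than CCL3 lay between -0.13 and 0.29. Most of these 20 had control means under the dim mark, where a value does not show that the RNA was present. Of all 21 measured CCL genes 3 were below 0, or 17 with arrays scaled to the ribosomal protein genes. CCL3 has near-identical gene copies (CCL3L), whose RNA the probes may share. XCL1, the chemokine lymphotactin of T and NK cells, had 5.88 and 4.78 in control and 4.54 and 4.66 in treated cells (-0.73). Only control replicate 1 stood above the dim mark, and without it the difference was -0.18. Its near-identical copy XCL2 had 6.14 and 5.62 against 5.30 and 5.31 (-0.58), just outside the limit.

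BMP8B, a ligand of the TGF-β superfamily, had 9.0 and 8.44 in control and 8.20 and 7.85 in trabectedin cells (-0.70). Its close copy BMP8A had 7.94 and 7.61 against 7.49 and 7.19 (-0.43), and probes can pick up both. PROK2, the secreted prokineticin 2, had 10.59 and 10.49 against 9.96 and 9.92 (-0.60), with treated arrays 0.52 below the lower control array. Of 60 short cytokine and chemokine genes on the list used, CCL3 and XCL1 were the only members, IL6, the myeloma growth factor that U266 cells make themselves, having 0.38. Of 31 short NF-κB targets CCL3 was the only one, and ICAM1 (-0.56) lay just outside the limit.

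Of the 6 measured butyrophilin genes 3 were members and lie side by side in the histone gene region of chromosome 6. Butyrophilins are membrane proteins of the immunoglobulin superfamily, and BTN3A1 and BTN3A2 take part in the recognition of phosphoantigens by γδ T cells. BTN2A2, an inhibitor of T cell activation, had 9.64 and 8.99 in control and 8.70 and 8.40 in trabectedin cells (-0.76), BTN3A2 had 9.65 and 9.45 against 8.76 and 9.03 (-0.65), and BTN3A1 had 8.86 and 8.78 against 8.13 and 8.29 (-0.61). BTN3A2 and BTN3A1 were separated by 0.42 or more between groups, BTN2A2 by 0.29. In the same family BTN3A3 had -0.24, BTN1A1 0.16 and BTN2A1 0.19, the last 2 turning below 0 under ribosomal scaling. The 3 BTN3A genes are close paralogs, so the division of signal between them is uncertain.

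The linker histone genes gave 2 members. H1-4 had 16.58 and 15.75 in control and 15.36 and 15.54 in trabectedin cells (-0.72), and H1-2 had 8.01 and 7.76 against 7.19 and 7.33 (-0.62). In H1-4 the higher control array carried most of the difference, which was -0.30 without control replicate 1, while in H1-2 it stayed between -0.49 and -0.75. Of the other measured H1 genes H1-10 had -0.44, H1-3 -0.28, H1-7 -0.26, H1-5 0.04, H1-8 0.08, H1-1 0.22 and H1-6 0.34. The replication-dependent histone list held 26 measured genes, all short, with a median difference of 0.04. H2BC14 (-0.86) was the lowest and H2BC21 (0.84) the highest, and these mRNAs, which mostly end in a stem loop and not in a poly(A) tail, accumulate in S phase.

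FAM72C and FAM72D are human-specific copies of a gene family on chromosome 1 whose member FAM72A binds the uracil DNA glycosylase UNG2. FAM72C had 12.43 and 12.11 in control and 11.51 and 11.71 in trabectedin cells (-0.66), and FAM72D had 13.62 and 13.21 against 12.72 and 12.85 (-0.63). Clusters assigned to several copies at once gave -0.56 (FAM72B and FAM72C) and -0.55 (FAM72A, FAM72B and FAM72C). Probes may not tell these near-identical copies apart, so the 4 values are not independent. The annotated starts of the printed FAM72C and FAM72D sequences are offset, and 121 bases of the 250 before each start are identical, which is all of the overlap.

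RNA synthesis and decay is the field of 2 members. PPP1R10, the nuclear targeting subunit PNUTS of protein phosphatase 1, which acts on RNA polymerase II at the end of genes, had 12.23 and 12.05 in control and 11.35 and 11.66 in trabectedin cells (-0.63). Its 6 further transcript clusters, 5 of them on alternative haplotypes of the same region, gave -0.63 or -0.64 and are not independent values. PAN2, the catalytic subunit of a poly(A) deadenylase, had 9.22 and 8.75 against 8.54 and 8.19 (-0.61), and without control replicate 1 it had -0.38.

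Adaptors, scaffolds and membrane traffic are represented by 3 members. EHD3, an ATPase of endocytic recycling, had 8.23 and 8.0 in control and 7.22 in both trabectedin arrays (-0.90), and no leave-out moved it outside -0.79 to -1.01. EHD4, with a longer locus of 76.6 kb, had -1.06, and EHD1 and EHD2 had -0.03 each. HOMER3, a scaffold of synaptic and calcium signaling proteins, had 11.43 and 10.85 against 10.58 and 10.38 (-0.66), and the long genes HOMER1 and HOMER2 had -0.80 and -0.43. SH2B2, an adaptor of insulin and cytokine receptors, had 10.12 and 9.90 against 9.27 and 9.48 (-0.63), beside 0.13 for SH2B1.

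The last 7 members have other or little known functions. RNF133 and RNF148, RING ubiquitin ligases known from testis, had 6.04 and 5.67 against 4.96 and 4.96 (-0.90), and 6.22 and 6.07 against 5.34 and 5.50 (-0.73). CAVIN4, a muscle component of caveolae, had 5.69 and 5.51 against 4.61 and 4.90 (-0.84). The treated values of these 3 lay at or under the dim mark, save 1 value of RNF148 just above it. MEAK7, a lysosomal activator of mTOR signaling, had 7.37 and 7.25 against 6.60 and 6.57 (-0.73), with a gap of 0.65 and narrow groups. FAM174B had 8.59 and 8.16 against 7.56 and 7.75 (-0.72). KRCC1 had 9.77 and 9.49 against 8.78 and 9.18 (-0.65). In both of these the groups lay about as far apart as the arrays within them, with gaps of 0.42 and 0.31. RUSF1 had 9.11 and 8.88 against 8.17 and 8.64 (-0.59) and was nearest the limit.

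**Figure D3:**
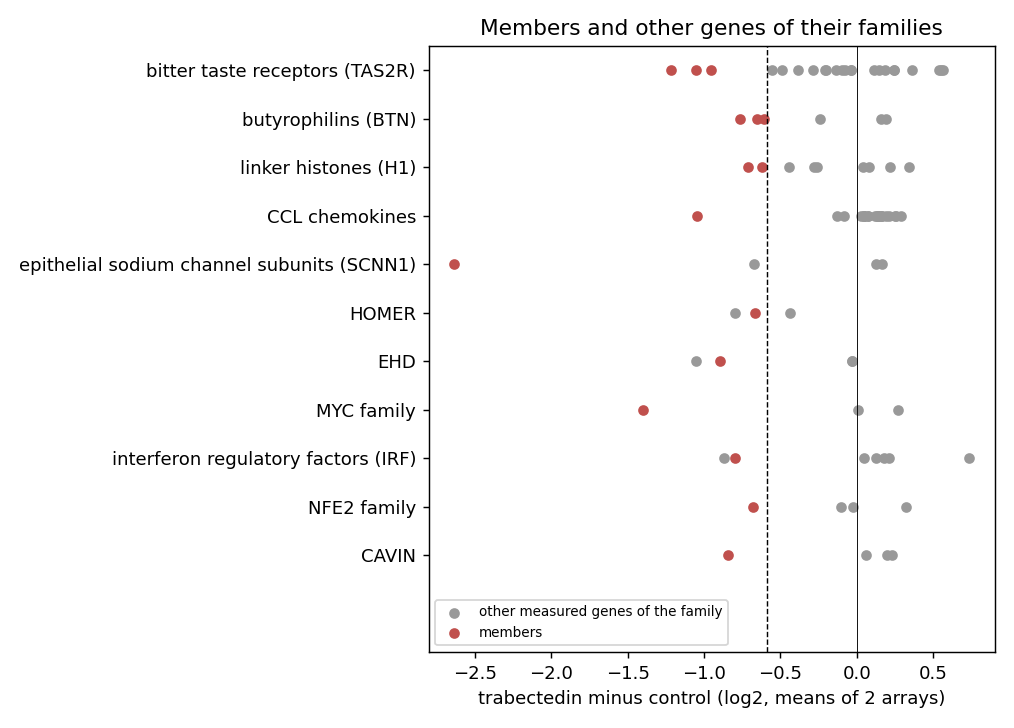
Difference of group means (log2, 2 arrays each) of the members in red and of the other measured genes of their families in grey, for 11 families with at least 3 measured genes, olfactory receptors left out. Most relatives lie right of the dashed limit at -0.585, for example BTN3A3 at -0.24, CCL4 at 0.08 and MYC at 0.27. The arrays of CCL4 lay far apart within each group. EHD4 (-1.06), IRF2 (-0.87), HOMER1 (-0.80) and SCNN1B (-0.67) are long genes below the limit.

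Of all members 7 stood on any of the 28 lists of pathways, complexes and markers used (IRF4, XBP1, PSAT1, CCL3, XCL1, H1-4 and H1-2), and 30 stood on none. Several lists held no member, among them 0 of 42 short immediate early and rapid turnover regulators, with a median difference of 0.19, 0 of 34 short interferon-stimulated genes (0.24), 0 of 20 short p53 targets (0.29) and 0 of 19 short apoptosis regulators (0.12). Among 30 short myeloma and plasma cell surface genes and 32 short cytokine and chemokine receptors there was also none. The 48 cytosolic ribosomal protein genes, all short, had a median of 0.21 and no member. Beside these stand 0.13, the median over all short genes, and 0.353%, the share of members among them. At that share most lists of such sizes would hold no member, so nothing is read from the lists without one.

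Members were next described by their place in the genome, which the choice did not use. Of the 37 loci 6 lie wholly inside a gene of 40 kb or more (287 short genes do, 2.74%). GPR52 lies inside RABGAP1L, a Rab GTPase activator on the same strand whose values were 9.60 and 9.72 in control and 7.91 and 8.49 in trabectedin cells (-1.46). RNF133 and RNF148 lie inside CADPS2, a factor of vesicle release with 9.09 and 9.46 against 5.54 and 6.65 (-3.18). In these 3 pairs the longer gene had the larger difference, and whether unspliced RNA of the longer gene contributed to the short gene's probes was not tested. TAS2R13 and TAS2R14 lie inside PRH1 (-0.15) on the same strand, and OR56A4 inside OR56A3 (-0.02), where the longer gene had a difference near 0.

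Short genes inside a lower gene were set beside all short genes. Of 25 short genes wholly inside a gene at least 2-fold lower with trabectedin, 3 were members (12%, against 0.353% of all short genes). A difference below 0 was found in 8 of them, and the median was 0.09, beside 0.13 over all short genes. Of the 25 short genes 14 lay under the dim mark. For example VTI1B (-0.09), PIGH (0.00), EIF2S1 (0.52) and ATP6V1D (0.58), chosen here after their values were seen, lie inside GPHN (-2.20). EVI2B (0.96), chosen in the same way, lies inside NF1 (-2.28). EIF2S1 is on the strand of GPHN, whereas VTI1B and ATP6V1D are on the opposite strand. No strand was given for PIGH and EVI2B, nor for CADPS2 around RNF133 and RNF148. The counts and medians here were not divided by strand. Whether RNA of the longer gene reached the probes of these short genes was not tested. With a longer gene at least 1.5-fold lower, the same 3 were members of 46 short genes (6.52%). Among 241 short genes inside other long genes 3 were members, with a median of 0.13. The members were chosen on these values, so nothing is read from these counts.

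**Figure D4:**
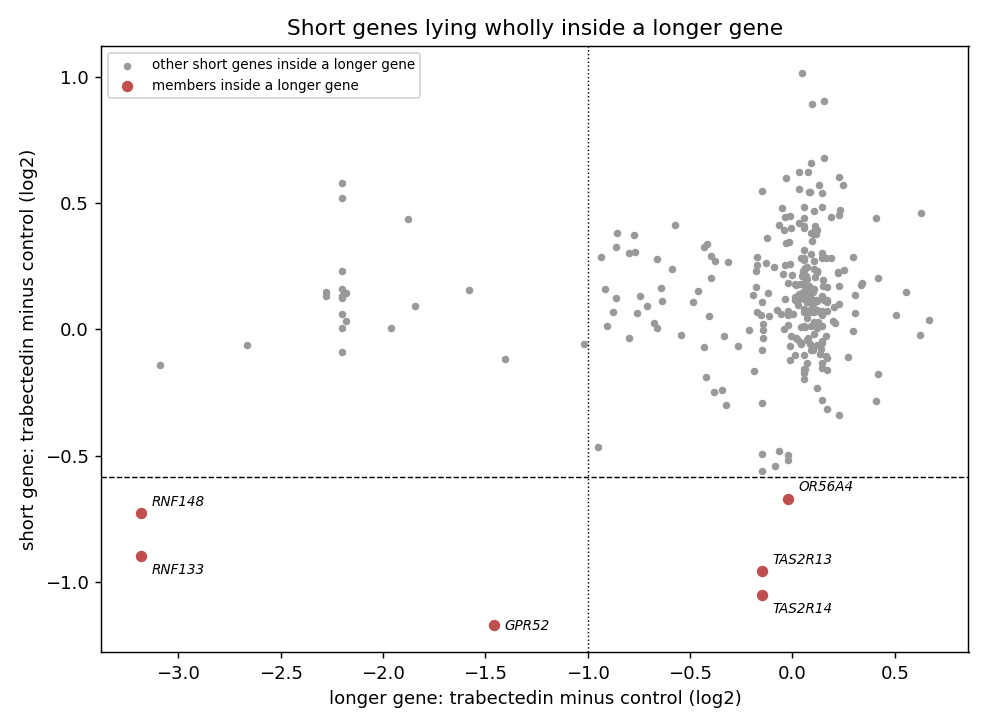
Difference of group means (log2) of 287 short genes against that of the longer gene they lie in, members in red, with the difference limit dashed and a 2-fold lower longer gene dotted. RNF148, RNF133 and GPR52 lie under the dashed line left of the dotted one, where the other 22 genes run from -0.14 to 0.96. TAS2R14, TAS2R13 and OR56A4 lie inside genes whose difference of group means was near 0, with values near the dim mark. The treated arrays of OR56A3, the longer gene around OR56A4, lay far apart.

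Some further members overlap a neighbor in part. CAVIN4 overlaps TMEFF1 (104 kb, -0.68), FAM72D overlaps SRGAP2B (208 kb, -0.47), BMP8B overlaps PPIE (0.27) and OXCT2 (-0.19), and RUSF1 overlaps SLC5A2 (0.22). The nearest measured protein-coding gene met the same 2 limits in 8 members (21.6%, against 4.03% of short genes). They are the short genes of the 3 pairs above, CAVIN4, the 3 butyrophilins, which neighbor each other, and IRF4. The neighbor of IRF4 is DUSP22, a phosphatase gene of 58.9 kb that lies 40.4 kb away. It had 11.64 and 10.99 against 10.54 and 10.30 (-0.90). The neighbors of the butyrophilins are themselves members, chosen on this contrast, and RNF133 and RNF148 share CADPS2. Nothing is therefore read from this share. For most other members the neighbor differed: H2BC5, 1.01 kb from H1-4, had 0.37, CCDC117, 5.26 kb from XBP1, had 0.47, and TRIT1, 11.9 kb from MYCL, had 0.21. In all 12 members lie within 150 kb of another, namely the 3 butyrophilins, the 3 bitter taste receptors, the linker histone pair (99.9 kb), RNF133 and RNF148 (2.6 kb) and BMP8B and MYCL (106.6 kb). Chromosome 6 held 7 members of 552 short genes (1.27%), chromosome 1 held 6 of 1125 (0.533%), and chromosomes 7 and 12 held 4 each.

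The promoters, taken as the 250 bases before the RefSeq start, were listed for 31 of 37 members and 8374 short genes. SCNN1G, PI15, RNF133, BTN2A2, BTN3A1 and XCL1 were not matched. The median GC content was 61.2% in members and 61.6% in all short genes, with 11 members (35.5%, against 19.9%) under 50%. The lowest were TAS2R13 (29.6%), OR2D2 and RNF148 (32.0% each) and TAS2R10 (32.8%), and the highest BMP8B (81.6%) and PROK2 (81.2%).

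A set of 8 motifs, chosen with the members known and none containing another, was searched on both strands. A match was counted at any distance from the start within the window. The TATA box (TATAAA) was found in 12 of 31 members (38.7%, against 10.6% of short gene promoters) and the CCAAT box (CCAAT) in 18 (58.1%, against 36.3%). The GC box (GGGCGG) was found in 13 (41.9%, against 54.4%), the E-box (CACGTG) in 2 (6.45%, against 7.55%), the AP-1 site (TGANTCA) in 4 (12.9%, against 5.4%) and an ISRE core (GAAANNGAA) in 5 (16.1%, against 6.47%). The cAMP response element (TGACGTCA, 2.19% of short gene promoters) and an NF-κB site (GGGANTTTC, 1.19%) were not found in the windows of members. The TATA matches were in IRF4, CCL3, H1-4, PPP1R10, PROK2, BTN3A2, FAM72D, CAVIN4, RNF148, OR2D2, TAS2R10 and TAS2R13, 7 of which have promoters under 50% GC, and the part of base composition in this share was not tested. The TATA match of FAM72D lies farther from the start than its printed bases, which hold none. No position is given for the TATA matches of members that are not printed. The count of 12 therefore does not say how many members hold a TATA box near the start. No motif search says whether a factor was bound.

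With single arrays left out, members moved by up to 0.55. The members were chosen for groups that do not overlap, so every leave-out difference is below 0 by construction and its sign says nothing about stability. A total of 13 members stayed at or below -0.585 whichever array was left out: SCNN1G, PI15, MYCL, TAS2R10, GPR52, TAS2R14, TAS2R13, EHD3, RNF133, CAVIN4, OR8G5, MEAK7 and RNF148. The other 24, among them IRF4, XBP1, CCL3, PSAT1 and both linker histone genes, lay outside the limit without at least 1 array. Control replicate 1 moved the most members across the limit: without it 19 members lay outside the limit and the median difference was -0.57, against 3 members (-0.89) when control replicate 2 was dropped. Dropping trabectedin replicate 1 put 12 members outside (-0.70), and dropping its replicate 2 put 6 outside (-0.80). The farthest moves were those of XCL1 (from -0.73 to -0.18 or -1.28), PSAT1 (from -0.75 to -0.23 or -1.27) and CCL3 (from -1.05 to -0.57 or -1.52).

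**Figure D5:**
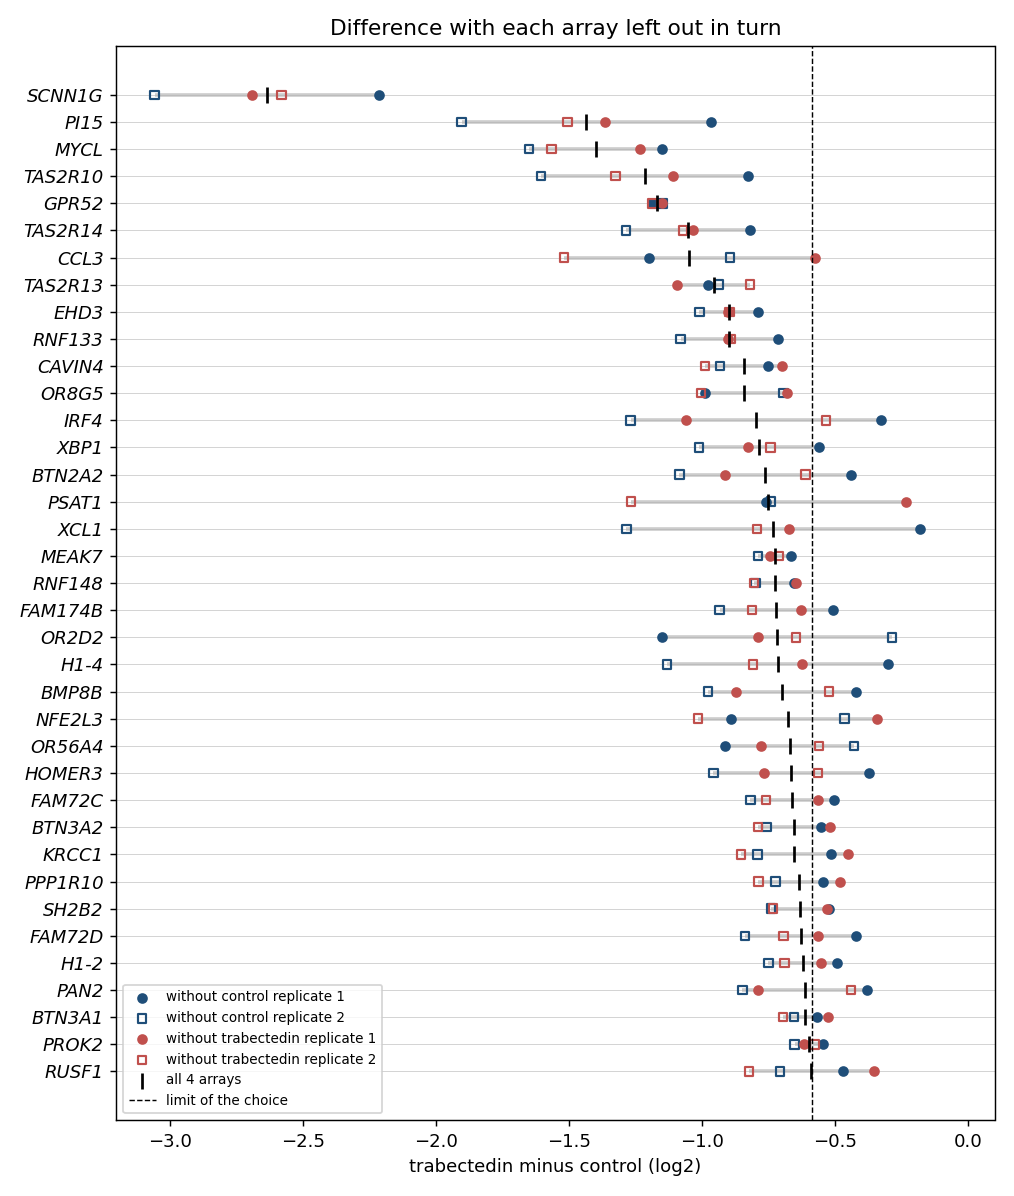
Difference (log2) of each member over all 4 arrays (black bar) and with each array left out in turn (blue, a control array left out; red, a trabectedin array left out; filled circle, replicate 1; open square, replicate 2), with the limit of -0.585 dashed. In 13 members all symbols lie at or left of the limit, and the blue filled circles, without control replicate 1, lie right of it in 19.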

How the data were processed

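RNA was extracted with TRIzol per the labels and on RNeasy columns per the study's methods, which was not resolved here. The authors hybridised it to Affymetrix Human Transcriptome Arrays and, per the labels, processed the arrays with RMA in Affymetrix Expression Console (versions not given in the sources used here). The deposited log2 intensity values were used as given for 70523 features on 4 arrays; 843 to 899 features an array exceed 16, above what a 16-bit scan allows, so a rescaling not stated in the sources is part of the values. Arrays carry no read depth, and their number limits the precision.

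Of all features 23781 carry 1 gene symbol, 1543 several and 45199 none; 23777 were matched to RefSeq GRCh38.p14 genes (21497 by Entrez ID, 1974 by symbol, 306 by synonym), giving 22411 genes, 17151 of them protein-coding. Locus lengths, nesting and promoters come from RefSeq tables of that assembly. The linear model was fitted over all genes with limma 3.58.1 in R 4.3.3, without a block, with Benjamini-Hochberg adjustment; the fit was tested on simulated data. Other tables used Python 3.11.15 and pandas 2.3.3. Groups were control and trabectedin, 2 arrays each.

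Members, lists, families, motifs and the dim mark were chosen with earlier results of these data known. Named genes were, by rule, the 15 members with the lowest difference, the 8 with the highest control mean, list members, genes next to the limits and the 3 members most moved by 1 array; the remaining members were added so that all are accounted for. Alternatives were leaving out each array, repeated quantile normalization, scaling to 48 ribosomal protein genes, the mean of a gene's clusters, a level filter, other limits, a replicate block, a mean-variance trend and a Student t-test. A filter on the dim end was added after the data were seen.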

Additional observations from a re-analysis of the deposited data

How the results depend on the processing

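The number of members was 37, and it ranged from 39 to 80 with single arrays left out, which changes which genes qualify: 61 without control replicate 1 (18 of the 37 kept), 80 without control replicate 2 (34 kept), 39 without trabectedin replicate 1 (25 kept) and 80 without trabectedin replicate 2 (31 kept). It was 59 with quantile normalization repeated (all 37 kept), 86 with arrays scaled to the ribosomal protein genes (36 kept) and 7 with a limit of -1. Ribosomal scaling moved the median difference of all genes by -0.20 (to -0.10) and quantile normalization by -0.10 (to 0.00), so more genes pass a fixed limit. Loci under 20 or 60 kb gave 27 and 49 members, overlapping groups 40, a level above the median of all genes 28, and the added filter on the dim end 34.

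The median difference of the members was between -0.57 and -0.89 with single arrays left out, -0.82 with quantile normalization and -0.92 with ribosomal scaling, and no member's difference changed sign under these settings, a direction that the choice of members fixes for the leave-outs.

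The adjusted call of limma held for 0 members. It held for 12 (689 genes, 3.07%) under ribosomal scaling, and the Student t-test before adjustment called 12 (2392 genes, 10.7%). Same-numbered arrays deviated together (r = 0.559 over 22411 genes, the same for both numbers by construction), but with 2 pairs and no label that says so the pairing is not established. With the replicate number as a block limma called 21 members and 1392 genes (6.21%). With single arrays left out it called 0 members, and 0 to 228 genes, the highest count without trabectedin replicate 2. The contrast chose the members, so none of these counts is evidence about them. With 2 arrays a group, the dim values of the receptor genes and the shared probes of near-identical copies limit what single genes can show.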
